A study of Homo sapiens with 10 samples.

Results

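The HES and HEY genes encode a family of basic helix-loop-helix repressors, and their transcript levels were followed in SH-SY5Y cells, a human neuroblastoma line of neuroblast-like cells. The family was taken as 9 genes by name, HES1, HES2, HES4, HES5, HES6, HES7, HEY1, HEY2 and HEYL, out of 23415 genes kept from the deposited tables. Poly(A) RNA was sequenced 72 h after treatment. In the siRNA table, cells had been given 100 nM of an siRNA against LncND, a primate long non-coding RNA (3 libraries), or a scrambled siRNA (3 libraries). In the miRNA table, cells had been given 50 nM of a mimic of the microRNA miR-143-3p (2 libraries) or a scrambled miRNA (2 libraries). The title of the series places LncND in Notch signalling and describes it as sequestering microRNA, so the question was how Notch effector genes respond to loss of LncND and to gain of miR-143-3p. All groups shared the cell line and the medium, DMEM/F12 with 10% serum. The labels give no separate cultures for the replicates, and the spread that the p-values measure is between these libraries only and may be technical. LncND had no row of its own in the tables, so its level was not analysed here.

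When a Notch receptor is cleaved, its intracellular domain enters the nucleus and joins the DNA-binding protein RBPJ and a Mastermind coactivator, and HES1, HES5, HEY1, HEY2 and HEYL are among the best-known genes switched on by this complex. HES and HEY proteins bind N box and class C E box motifs and recruit corepressors, Groucho/TLE proteins for the HES family, and in neural progenitors they hold back proneural genes. HES6 stands apart in the family because it antagonises HES1 and is expressed in differentiating neurons, and HES7 is the oscillating repressor of the segmentation clock in mouse.

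The sequences that bear on the design are the mature miR-143-3p, with its seed (bases 2 to 8) in capitals, and the seed matches in the 3′ UTRs of the family. Perfect matches of 7 bases were searched in the GENCODE v29 transcripts (GRCh38), counted as a match to the whole seed or to bases 2 to 7 followed by an A. Of the 9 genes, 1 had such a match, HES2, with 3 matches in its longest 3′ UTR of 3641 bases, of which 2 are shown here in capitals and counted from the first base of the UTR. The shorter annotated UTRs of HES2 held none, and neither did any annotated UTR of HES1, HES4, HES5, HES6, HES7, HEY1, HEY2 or HEYL. Among the genes tested in the miRNA table, 24.8% of 11198 with an annotated 3′ UTR held at least 1 match. The mature miRNA is from RefSeq (GRCh38.p14, chr5:149428978-149428998, plus strand).
miR-143-3p: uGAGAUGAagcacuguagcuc
HES2 3′ UTR, match at 2222: ttctgagagtcCATCTCAgttcgcagttc
HES2 3′ UTR, match at 3383: gtcctgtgggtTCATCTCggatgggcgct

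Promoters were read from RefSeq (GRCh38.p14) as 250 bases before to 50 after the start of the gene, and 8 of the 9 genes matched an entry; HEY1 did not. They are shown for the 4 genes that fell together with the mimic, with the RBPJ core (TGGGAA) and the N box (CACNAG) in capitals on either strand. The class C E box (CACGNG) was also searched on both strands, and the letters CACGAG fit both it and the N box. The RBPJ core was held by 24.0%, the N box by 38.0% and the class C E box by 30.5% of 35116 promoters. HES1 held 2 RBPJ cores, at -84 and -70 relative to the start, and 4 N boxes. HES4 held 1 RBPJ core, HES7 1 N box, and HES6 held no match to any of the motifs. The class C E box had 4 matches in HES1 and 1 in HES7, and none in the other promoters read. Those of HES1 at -120 and -47 are not in capitals, and that of HES7 has the same letters as its N box. Of the promoters not shown, those of HES5, HEY2 and HEYL held 2 RBPJ cores each and that of HES2 held 1 N box. These matches are descriptions of letters in the window.
HES1 promoter, chr3:194135898-194136197, plus strand: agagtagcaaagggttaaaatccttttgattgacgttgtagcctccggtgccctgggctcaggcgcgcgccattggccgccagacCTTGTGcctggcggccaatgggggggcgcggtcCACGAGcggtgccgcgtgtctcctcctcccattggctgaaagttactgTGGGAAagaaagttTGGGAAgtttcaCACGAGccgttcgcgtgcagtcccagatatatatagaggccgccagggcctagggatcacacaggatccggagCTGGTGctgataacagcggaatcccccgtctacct
HES4 promoter, chr1:1000048-1000347, minus strand: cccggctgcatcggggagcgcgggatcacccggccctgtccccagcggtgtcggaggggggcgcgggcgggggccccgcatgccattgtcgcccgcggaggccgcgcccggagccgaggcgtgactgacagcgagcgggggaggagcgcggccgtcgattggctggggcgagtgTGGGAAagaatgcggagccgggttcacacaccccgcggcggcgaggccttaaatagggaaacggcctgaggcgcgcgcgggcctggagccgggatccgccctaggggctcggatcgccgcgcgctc
HES6 promoter, chr2:238239989-238240288, minus strand: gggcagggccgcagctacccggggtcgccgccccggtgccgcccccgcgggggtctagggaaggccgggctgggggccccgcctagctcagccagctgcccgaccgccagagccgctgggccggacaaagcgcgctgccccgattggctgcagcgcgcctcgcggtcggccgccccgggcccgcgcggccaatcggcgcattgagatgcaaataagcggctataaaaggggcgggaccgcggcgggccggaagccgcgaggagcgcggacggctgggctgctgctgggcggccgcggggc
HES7 promoter, chr17:8124057-8124356, minus strand: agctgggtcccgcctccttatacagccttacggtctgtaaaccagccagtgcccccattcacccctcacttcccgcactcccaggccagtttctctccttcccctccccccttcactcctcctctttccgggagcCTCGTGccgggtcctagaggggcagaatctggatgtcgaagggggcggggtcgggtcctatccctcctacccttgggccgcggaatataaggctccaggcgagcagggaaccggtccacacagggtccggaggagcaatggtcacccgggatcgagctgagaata

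Levels were given by the authors as FPKM, the fragments of a gene divided by its transcript length in kilobases and by the size of the library, in which 0.001 stood in the place of 0. The depth behind them, estimated from the steps between low values, was 25.8 to 44.1 M fragments in LncND siRNA libraries, 28.1 to 33.6 in scrambled siRNA libraries, 27.2 and 13.9 in mimic libraries, and 14.3 and 37.8 in scrambled miRNA libraries. A value of 1224670 FPKM for the Y RNA gene RNY4 set LncND siRNA replicate 1 apart. Over genes of 300 bp or longer, the FPKM of that library summed to 432314, within the range of 405607 to 447764 of all 10. Of 10 neuroblast markers, 9 were tested in each table, and TH, the rate-limiting enzyme of noradrenaline synthesis, lay between 0.0390 and 0.438 FPKM in all libraries. Of 10 Schwann and glial markers 6, and of 10 endothelial and blood markers 7, were under 0.1 FPKM in every library, among them SOX10, CDH5, PTPRC, CD3E and HBB. In bulk RNA, fewer cells of a type and less RNA per cell cannot be told apart.

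The family was carried by 5 genes. FPKM is scaled to length, so levels can be set side by side between genes within a library. In every library HES6 had the highest level of the family, HEY1 the next and HES4 the third. HES1 lay above HES7 in LncND siRNA, scrambled siRNA and mimic libraries. In the scrambled miRNA libraries HES7, at 4.63 and 4.79 FPKM, lay above HES1, at 4.48 and 3.78 FPKM, without overlap. HES2, HES5, HEY2 and HEYL stayed under 0.3 FPKM in every library and under the filter of a mean of 1 FPKM over the libraries of a table, which left 5 of the 9 genes for testing in each comparison.

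**Figure D1:**
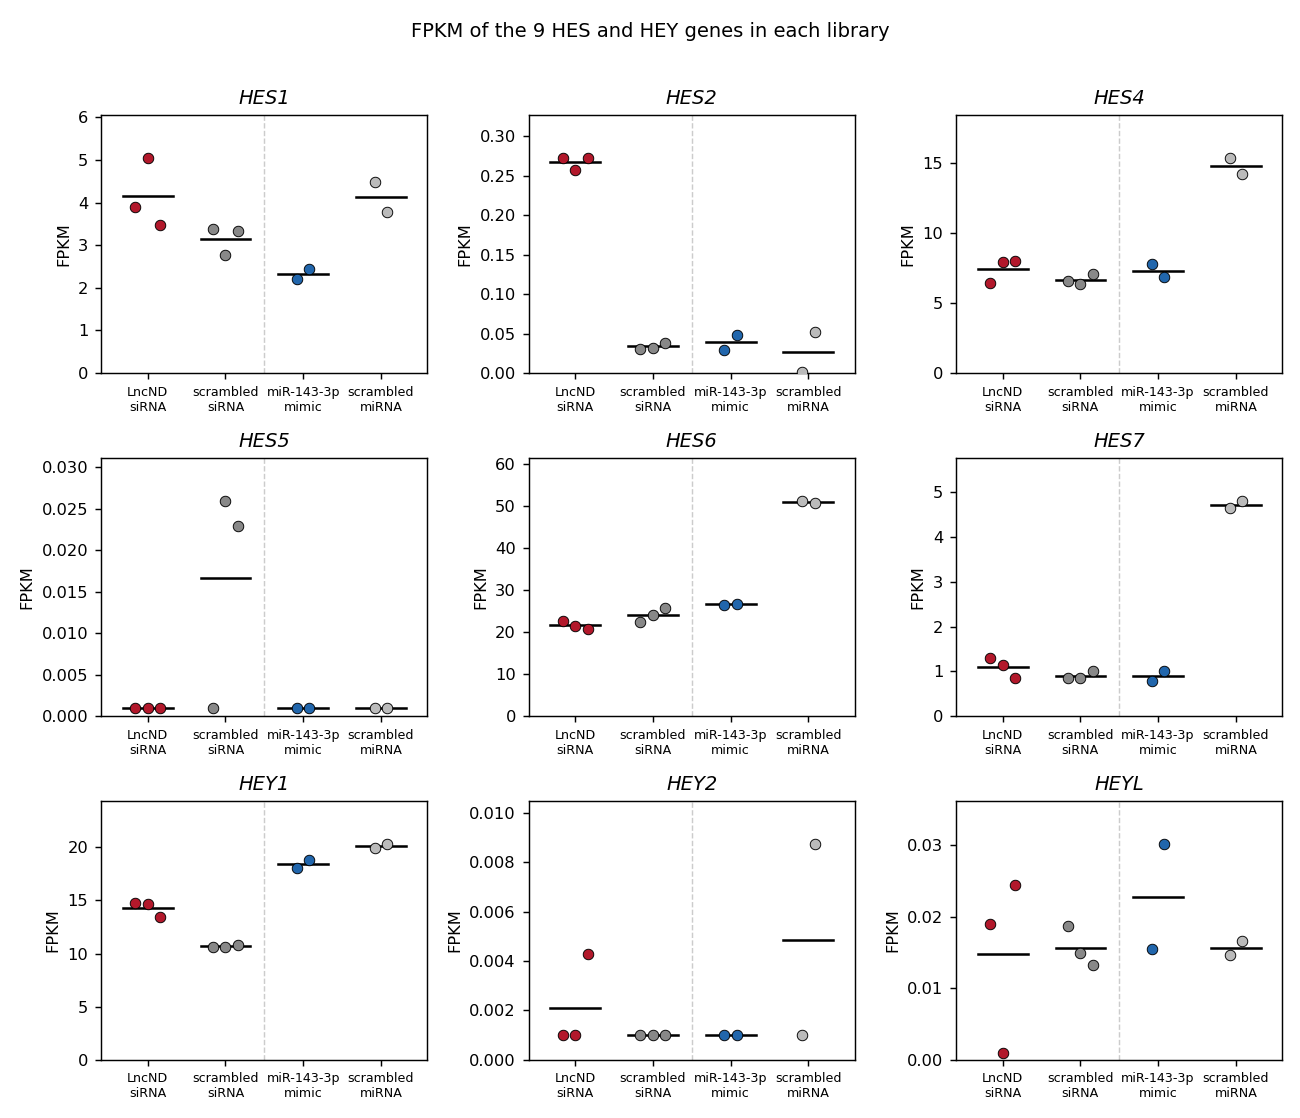
FPKM (vertical axis, a separate linear scale from 0 in each panel) of each of the 9 HES and HEY genes in the 10 libraries; points are libraries, lines are group means, and the dashed line parts the 2 tables. HES1, HES4, HES6, HES7 and HEY1 carry the family, and HES2 is higher in all 3 LncND siRNA libraries than in any other. HES4, HES6, HES7 and HEY1 are highest in the scrambled miRNA libraries.

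With LncND siRNA, HEY1 and HES1 rose, HES6 fell slightly, and HES4 and HES7 did not pass the test. Differences were tested with limma on log2(FPKM + 1), and adjusted p-values are Benjamini-Hochberg values over all 12601 genes of the table. Of these genes 66.9% passed, 36.6% higher and 30.3% lower, so 3 of 5 HES and HEY genes, 2 higher and 1 lower, is a share near that of all genes. The median difference of the 5 genes was 0.14 on the log2(FPKM + 1) scale, against 0.02 over all genes tested.

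HEY1, a Notch target that also carries BMP responses, had 14.7, 14.6 and 13.5 FPKM in LncND siRNA libraries, against 10.6, 10.6 and 10.8 FPKM in scrambled siRNA libraries (chromosome 8, 80676244 to 80680098, hg19). Every LncND siRNA library was above every scrambled siRNA library. The means were 14.3 ± 0.702 and 10.7 ± 0.137 FPKM (SD, n = 3 each), a ratio of 1.34. On the log2(FPKM + 1) scale HEY1 rose by 0.39 ± 0.04 (SE; limma adjusted p = 2.551e-05), and it passed in all 15 alternative settings, with log2 differences of 0.36 to 0.42.

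HES1, the main HES effector of Notch in neural progenitors, had 3.90, 5.05 and 3.48 FPKM in LncND siRNA libraries, against 3.37, 2.76 and 3.33 FPKM in scrambled siRNA libraries (chromosome 3, 193853930 to 193856401, hg19). The groups did not overlap, but the lowest LncND siRNA library lay just above the highest scrambled siRNA library. HES1 rose by 0.30 ± 0.10 on the log2(FPKM + 1) scale (SE; limma adjusted p = 0.0260). It failed the test in 5 of 15 alternatives. The difference itself was smaller without LncND siRNA replicate 2, at 0.18 (limma adjusted p = 0.0805), without scrambled siRNA replicate 2, at 0.23 (adjusted p = 0.104), and with quantile normalization, at 0.20 (adjusted p = 0.129). Without the filter it stayed at 0.30, and was 0.37 with a pseudocount of 0.1 as well, with limma adjusted p-values of 0.174 and 0.175. Of the 12601 genes tested, 70.9% had groups that did not overlap.

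HES6, the HES1 antagonist, had 22.8, 21.6 and 20.7 FPKM in LncND siRNA libraries, against 22.4, 24.0 and 25.8 FPKM in scrambled siRNA libraries (chromosome 2, 239146907 to 239148681, hg19). LncND siRNA replicate 1 lay within the range of the scrambled siRNA libraries, so the groups overlapped. HES6 fell by 0.14 on the log2(FPKM + 1) scale, with an SE of 0.05 (limma adjusted p = 0.0400). It failed the test in 8 of 15 alternatives, among them those without LncND siRNA replicate 2 or 3 and without scrambled siRNA replicate 2 or 3, with adjusted p-values of up to 0.170. Without scrambled siRNA replicate 3 the difference was -0.09 (adjusted p = 0.163).

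HES4, a HES1-like gene that human has and mouse lacks, had 6.40, 7.91 and 7.99 FPKM in LncND siRNA libraries, against 6.55, 6.35 and 7.05 FPKM in scrambled siRNA libraries (chromosome 1, 934341 to 935552, hg19). The groups overlapped through LncND siRNA replicate 1, and the difference of 0.14 ± 0.07 did not pass (SE; log2(FPKM + 1) scale, limma adjusted p = 0.131). Without that library the difference was 0.23 (adjusted p = 0.00287), and with any 1 of the other 5 left out it was 0.09 to 0.17 and did not pass. HES7 had 1.30, 1.15 and 0.849 FPKM in LncND siRNA libraries, against 0.863, 0.857 and 0.999 FPKM in scrambled siRNA libraries (chromosome 17, 8023907 to 8027410, hg19). Its groups overlapped too, and the difference of 0.13 ± 0.09 did not pass (SE; limma adjusted p = 0.191). The mean of HES7 over the table, 1.003 FPKM, was just above the filter. It averaged 1.10 FPKM in LncND siRNA and 0.906 FPKM in scrambled siRNA libraries, so it passed the filter only through the LncND siRNA libraries. Without LncND siRNA replicate 3 the difference was 0.22, which is given as a description because of that filter. Without LncND siRNA replicate 1 it was 0.07 (adjusted p = 0.508), and with 1 of the other 4 left out it was 0.11 to 0.17 and did not pass.

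HES2, a HES gene less studied than HES1, had 0.273, 0.258 and 0.273 FPKM in LncND siRNA libraries, against 0.0310, 0.0324 and 0.0383 FPKM in scrambled siRNA libraries (chromosome 1, 6475293 to 6479979, hg19). The groups lay far apart, with a ratio of means of 7.91, but the level was low in both. At the estimated depths the values stand for 12.0, 7.35 and 7.04 fragments per kb of transcript in LncND siRNA libraries and 1.04, 0.909 and 1.21 in scrambled siRNA libraries, so the ratio is imprecise. HES2 was under the filter; with no filter its difference on the log2(FPKM + 1) scale was 0.29 (limma adjusted p = 7.79e-05). No other row kept from the siRNA table overlapped the HES2 locus.

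HES5, a direct Notch target of neural progenitors, was listed at the lowest value in all 3 LncND siRNA libraries, and at 0.001, 0.0259 and 0.0229 FPKM in scrambled siRNA libraries. HEY2, known from cardiac and arterial cells, was at 0.001, 0.001 and 0.00427 FPKM in LncND siRNA libraries and at the lowest value in all 3 scrambled siRNA libraries. HEYL, a HEY gene of muscle and vascular cells, had 0.0190, 0.001 and 0.0244 FPKM in LncND siRNA libraries, against 0.0188, 0.0149 and 0.0132 FPKM in scrambled siRNA libraries. The values of these 3 genes stand for less than 1 fragment per kb in each library, and their groups overlapped.

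With the miR-143-3p mimic, HES1, HES4, HES6 and HES7 fell, by more than the spread between the libraries, and HEY1 did not pass the test. Of all 12558 genes tested here, 63.3% passed, 24.6% higher and 38.6% lower, against 4 of the 5 HES and HEY genes that passed the filter, all 4 of them lower. One of these, HES7, passed the filter only through its level in the scrambled miRNA libraries, so that it had to differ, and the count and median of the 5 genes are given as a description. The median difference of the 5 genes was -0.91 on the log2(FPKM + 1) scale, against -0.06 over all genes. Of all genes, 9.13% passed and were lower by at least 1.5-fold on that scale, and 1.82% passed and were lower by at least 2-fold. The split of all genes moved with the scaling, with 3094 higher and 4853 lower as deposited, 3897 higher and 4073 lower with median-ratio scaling, and 4141 higher and 3860 lower with quantile normalization. HES1, HES4 and HES6 were lower and past the threshold under each of these scalings, and HES7 was lower under each. A permutation test of 2 libraries against 2 cannot go below a p of 1 in 3, so the p-values come from the fit across all genes.

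HES7 had 0.784 and 1.02 FPKM in mimic libraries, against 4.63 and 4.79 FPKM in scrambled miRNA libraries. The means were 0.903 ± 0.168 and 4.71 ± 0.114 FPKM (SD, n = 2 each), a ratio of 0.192, and both mimic libraries were far below both scrambled miRNA libraries. HES7 fell by 1.59 on the log2(FPKM + 1) scale, with an SE of 0.09. It passed the filter only through its level in the scrambled miRNA libraries, so its fall and rank are given as a description. Of the 12558 genes tested, 32 had a lower difference.

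HES4 had 7.79 and 6.82 FPKM in mimic libraries, against 15.4 and 14.2 FPKM in scrambled miRNA libraries. HES6 had 26.6 and 26.7 FPKM in mimic libraries, against 51.2 and 50.8 FPKM in scrambled miRNA libraries. Both genes had levels near 0.5 times those of the scrambled miRNA libraries, with ratios of means of 0.494 for HES4 and 0.522 for HES6. HES4 fell by 0.93 (SE 0.07; limma adjusted p = 3.765e-06) and HES6 by 0.91 (SE 0.04; adjusted p = 2.067e-07) on the log2(FPKM + 1) scale.

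HES1 had 2.21 and 2.44 FPKM in mimic libraries, against 4.48 and 3.78 FPKM in scrambled miRNA libraries. Both mimic libraries were below both scrambled miRNA libraries, with a ratio of means of 0.562. HES1 fell by 0.62 on the log2(FPKM + 1) scale, with an SE of 0.09 (limma adjusted p = 0.0001932). With no filter on low values the adjusted p was 0.0526.

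HEY1 had 18.0 and 18.8 FPKM in mimic libraries, against 20.0 and 20.3 FPKM in scrambled miRNA libraries. The groups did not overlap, as in 81.9% of all genes tested, and the difference of -0.12 ± 0.05 on the log2(FPKM + 1) scale did not pass (SE; limma adjusted p = 0.0506). It passed in 3 of 13 alternatives, and adjusted p-values over these ran from 0.0339 to 0.321.

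HES2, the gene with the seed matches, had 0.0298 and 0.0484 FPKM in mimic libraries, against 0.001 and 0.0525 FPKM in scrambled miRNA libraries. These values stand for 0 to 1.99 fragments per kb, at which a fall could not be seen. HES5 was at the lowest value in all 4 libraries. HEY2 was at the lowest value in both mimic libraries, and at 0.001 and 0.00874 FPKM in scrambled miRNA libraries. HEYL had 0.0155 and 0.0301 FPKM in mimic libraries, against 0.0146 and 0.0166 FPKM in scrambled miRNA libraries.

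**Figure D2:**
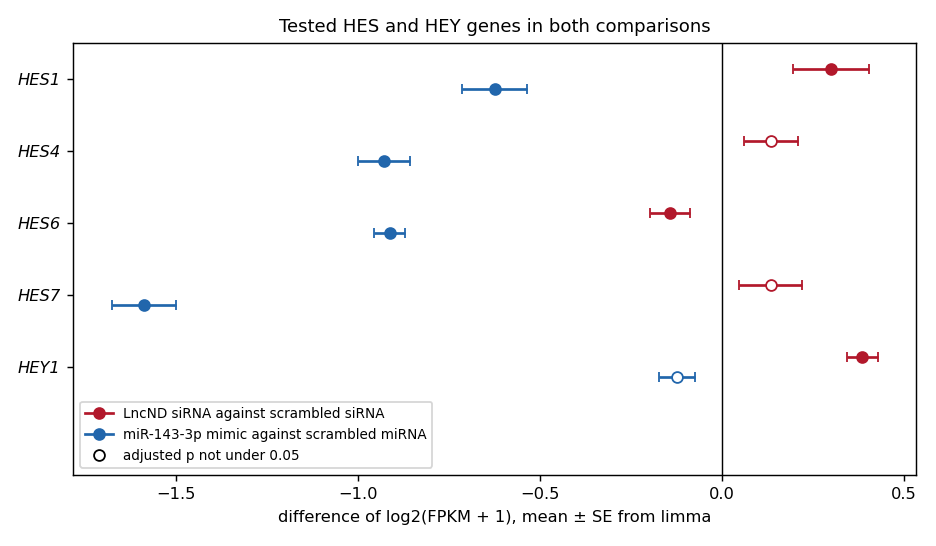
Difference of log2(FPKM + 1) (horizontal axis, treated minus its own control, with the SE from limma) for the 5 tested genes with LncND siRNA (red, n = 3 each) and with the mimic (blue, n = 2 each); filled points have an adjusted p under 0.05. With the mimic all 5 genes lie below 0, from -1.59 for HES7 to -0.12 for HEY1, and with LncND siRNA they lie between -0.14 and 0.39.

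The difference between the mimic effect and the LncND siRNA effect was tested with limma over the 10 libraries together, as a contrast that removes any constant offset of 1 table against the other. Of 12327 genes 60.2% passed this test, and so did the 5 HES and HEY genes that passed the filter. The difference was -1.06 ± 0.12 for HES4, -0.92 ± 0.16 for HES1, -0.77 ± 0.08 for HES6 and -0.51 ± 0.06 for HEY1 (SE), with the highest limma adjusted p 0.0002194. HES7, at -1.72 ± 0.13, averaged under 1 FPKM in mimic and scrambled siRNA libraries and was not tested with the filter at 3 FPKM. It passed the filter of the miRNA table only through its level in the scrambled miRNA libraries, so its difference is given as a description. HES1, HES4, HES6 and HEY1 passed in every alternative setting. The pair HES6 and HEY1 shows how the genes differed among themselves. The level of HES6 was 1.48 to 1.55 times that of HEY1 in LncND siRNA libraries, against 2.11 to 2.38 times in scrambled siRNA libraries. It was 1.48 and 1.42 times that of HEY1 in mimic libraries, against 2.57 and 2.51 times in scrambled miRNA libraries. In both comparisons the ratio was lower in every treated library than in every control library, with HEY1 higher in the siRNA comparison and HES6 lower in the mimic comparison.

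Summed over the 9 genes, the family had 46.8 to 50.6 FPKM in LncND siRNA libraries, against 43.8 to 48.1 FPKM in scrambled siRNA libraries, and these ranges overlapped. It had 55.5 and 55.9 FPKM in mimic libraries, against 95.7 and 94.0 FPKM in scrambled miRNA libraries. The tables were deposited apart and may have been scaled apart, so levels across them are only set side by side. HES7 averaged 0.903 FPKM in mimic libraries and 4.71 FPKM in scrambled miRNA libraries, beside 0.906 FPKM in scrambled siRNA libraries. HES6 averaged 26.7 FPKM in mimic libraries and 51.0 FPKM in scrambled miRNA libraries, beside 24.1 FPKM in scrambled siRNA libraries. HES4 averaged 7.31 FPKM in mimic libraries and 14.8 FPKM in scrambled miRNA libraries, beside 6.65 FPKM in scrambled siRNA libraries. HEY1 averaged 18.4 FPKM in mimic libraries and 20.1 FPKM in scrambled miRNA libraries, beside 10.7 FPKM in scrambled siRNA libraries. HES1 averaged 2.32 FPKM in mimic libraries and 4.13 FPKM in scrambled miRNA libraries, beside 3.15 FPKM in scrambled siRNA libraries and 4.15 FPKM in LncND siRNA libraries. For HES7, HES6, HES4 and HEY1 the scrambled miRNA libraries stood highest of the 4 groups. For HES1 they did not, and its mimic mean was below both control means. What sets the level of the controls was not tested.

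**Figure D3:**
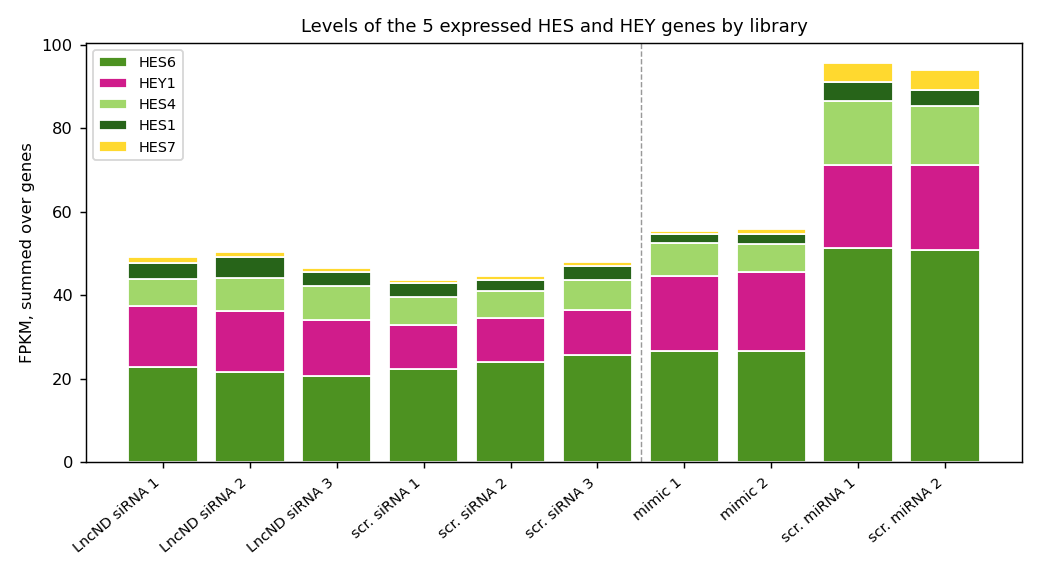
FPKM (vertical axis) of HES6, HEY1, HES4, HES1 and HES7 stacked for each of the 10 libraries, with a dashed line between the 2 tables. The 6 libraries of the siRNA table reach similar heights, and both mimic libraries lie well below both scrambled miRNA libraries, with most of the gap in HES6 and HES4.

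The pathway lists are described by their counts and medians, to be read against all genes tested, of which 36.6% rose and 30.3% fell with LncND siRNA (66.9% in all) and 24.6% rose and 38.6% fell with the mimic (63.3% in all). Of 8 tested receptors and ligands, 4 rose and 3 fell with LncND siRNA, with a median difference of 0.19, and 1 rose and 4 fell with the mimic, with a median of -0.21. The 5 of 8 that passed with the mimic are a share near that of all genes. All differences of the pathway genes are on the log2(FPKM + 1) scale, each rise or fall named has a limma adjusted p under 0.05, and the lists were compiled with earlier results of these data known. NOTCH1 rose by 0.33 with LncND siRNA and fell by 0.85 with the mimic. It averaged 0.934 FPKM in mimic libraries and 2.475 FPKM in scrambled miRNA libraries. NOTCH1 thus passed the filter of the miRNA table only through the scrambled miRNA libraries, and its fall with the mimic is given as a description. NOTCH2 fell by 0.58 with LncND siRNA and fell by 0.29 with the mimic, and NOTCH3 fell by 0.67 with LncND siRNA and fell by 0.27 with the mimic. NOTCH4 did not pass in either, with differences of 0.05 and -0.15. Of the ligands, JAG2 rose by 1.26 with LncND siRNA, and DLK1, a non-canonical ligand that restrains Notch signalling, rose by 0.48 with LncND siRNA and by 1.53 with the mimic. DLL3, a ligand that acts within the cell on Notch, fell by 0.83 with the mimic.

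Among genes of the Notch nuclear complex and its regulators, 1 of 13 tested rose and 9 fell with LncND siRNA, with a median of -0.28. With the mimic 5 of 12 rose and 2 fell, with a median of 0.16. The list mixes coactivators with genes that act against Notch, such as FBXW7, so these counts give no direction for the activity of the complex. In all, 10 of 13 and 7 of 12 passed, against 66.9% and 63.3% of all genes. The Mastermind coactivators MAML1 and MAML3 fell by 0.65 and 0.55 with LncND siRNA. FBXW7, the ubiquitin ligase subunit that marks the Notch intracellular domain for breakdown, rose by 0.53 with LncND siRNA and 0.31 with the mimic. With the mimic, MAML3 rose by 0.97 and CCNC, the cyclin of the kinase that phosphorylates that domain, by 0.84, while MAML1 fell by 0.30 and KAT2B, an acetyltransferase, by 0.35. RBPJ, named after its values were seen because it binds the core shown above, fell by 0.35 with LncND siRNA and rose by 0.61 with the mimic. Among 8 tested other direct Notch targets, 2 rose and 3 fell with LncND siRNA (median -0.06), and 1 rose and 3 fell with the mimic (median -0.06). NRARP, a Notch-induced inhibitor of Notch, fell by 1.10 with the mimic and did not pass with LncND siRNA, at -0.08. CDKN1A, a cell cycle inhibitor that is also in the list of genes repressed by the family, rose by 1.87 with LncND siRNA and fell by 1.35 with the mimic. MYC fell by 0.85 and SOX9 rose by 0.29 with LncND siRNA, and GATA3 rose by 0.60 with the mimic.

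Of 12 tested corepressors, which HES and HEY proteins recruit, 2 rose and 6 fell with LncND siRNA (median -0.13), and 3 rose and 5 fell with the mimic (median -0.08). The 8 of 12 that passed in each comparison are a share near the 66.9% and 63.3% of all genes. The Groucho genes TLE1 and TLE2 moved in opposite directions in both comparisons. TLE1 fell by 0.44 and TLE2 rose by 0.46 with LncND siRNA, and TLE1 rose by 0.38 and TLE2 fell by 0.46 with the mimic. TLE4 rose by 0.87 and TLE3 fell by 0.57 with the mimic, and TLE6 rose by 0.26 and the histone deacetylase HDAC1 fell by 0.22 with LncND siRNA. Among the E proteins and Id inhibitors, 3 rose and 4 fell of 7 tested with LncND siRNA (median -0.18), and 1 rose and 4 fell of 6 with the mimic (median -0.21). The Id genes, whose products block the DNA binding of other bHLH proteins, included ID1, which rose by 0.41 with LncND siRNA and fell by 0.45 with the mimic. ID2 rose in both, by 0.33 and 0.95, and ID3 rose by 0.32 with LncND siRNA and fell by 0.95 with the mimic. The E protein genes TCF3 and TCF4 fell by 0.46 and 0.31 with LncND siRNA. BHLHE40, the only tested gene of 4 related bHLH-Orange genes, had a difference of -0.16 with LncND siRNA that did not pass (adjusted p = 0.153) and rose by 0.49 with the mimic.

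Of 23 genes known to be repressed by HES or HEY proteins, 10 were tested in each table. With LncND siRNA 2 rose and 5 fell (median -0.13), and with the mimic 3 rose and 4 fell (median 0.00), so 7 of 10 passed in each, a share near the 66.9% and 63.3% of all genes. GATA4, which HEY proteins repress in heart cells, fell by 0.50 with LncND siRNA, and HAND1 rose by 0.42 with LncND siRNA and by 1.15 with the mimic. CDKN1A and DLL3, named above, are also in this list. They had its 2 largest falls with the mimic, with differences of -1.35 for CDKN1A and -0.8304 for DLL3. CDKN1C, a cell cycle inhibitor, had 93.7 ± 1.88 FPKM in mimic libraries and 26.7 ± 1.14 FPKM in scrambled miRNA libraries (SD, n = 2 each), and rose by 1.77 (limma adjusted p = 1.303e-08). With LncND siRNA CDKN1C fell by 0.45.

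**Figure D4:**
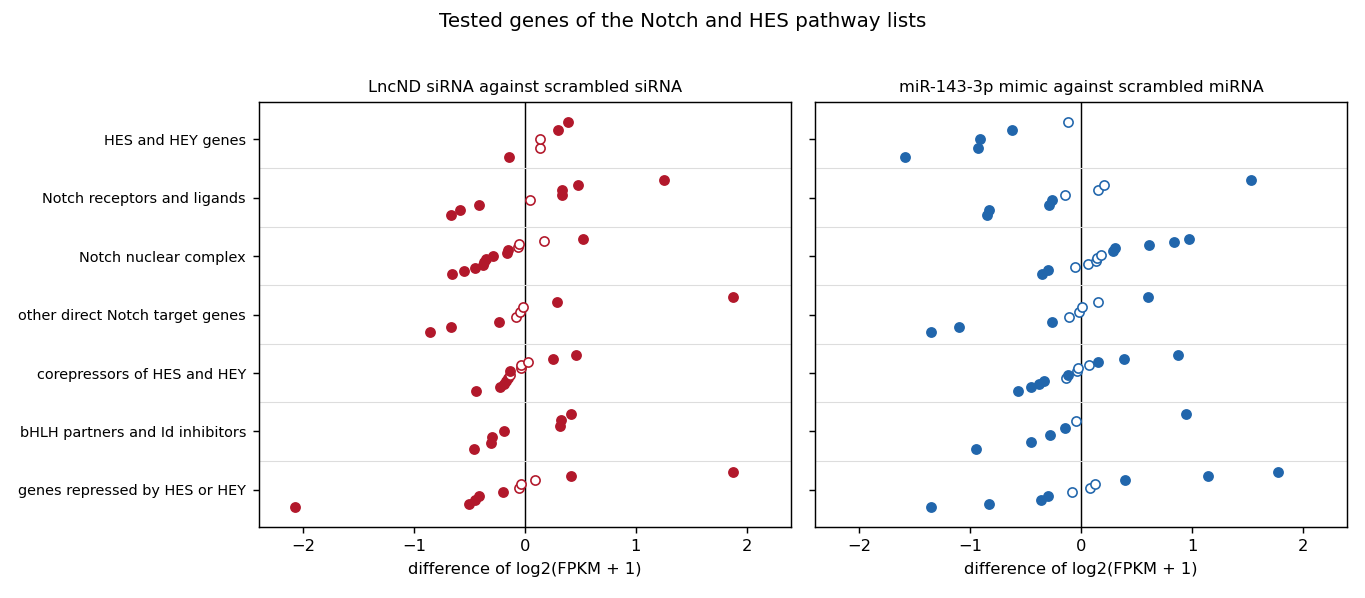
Difference of log2(FPKM + 1) (horizontal axis) of each tested gene, by list (rows), with LncND siRNA (left panel) and the mimic (right panel); points are genes, filled where the adjusted p was under 0.05, and a gene can stand in more than 1 list. Genes of each of the 6 pathway lists plotted lie on both sides of 0 in both panels, and all 5 HES and HEY genes lie below 0 with the mimic.

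The genes whose pattern over the 10 libraries was most like that of each HES or HEY gene were found by the Pearson correlation of log2(FPKM + 1), centred on the mean of each table, so that the libraries share their group differences. For HES7 these were CDKN2D, ATP5J2 and TSPAN13 (r of 0.99 each), and for HES6 SURF4 (1.00), TUBG1 (0.99) and RNPEP (0.99). For HES4 they were CAPN5, GTPBP1 and SYNJ2 (0.99 each), for HES1 STXBP3 (0.97), PPDPF (0.96) and CTHRC1 (0.95), and for HEY1 PFN1, HCFC1R1 and PPCS (0.99 each). No other row kept from the siRNA table overlapped any HES or HEY gene. The nearest tested neighbour of HES7 was PER1, a clock gene 16.4 kb away, which fell by 0.98 with the mimic and rose by 0.19 with LncND siRNA. The nearest tested neighbour of HES4 was ISG15, an interferon-induced gene 13.3 kb away, which fell by 0.61 with the mimic and rose by 0.73 with LncND siRNA. That of HES6 was ILKAP, 34.6 kb away, which did not pass in either comparison, at -0.03 with the mimic and 0.03 with LncND siRNA. That of HES1 was ATP13A3, 267 kb away, which fell by 0.12 with LncND siRNA and did not pass with the mimic, at -0.10. That of HEY1 was STMN2, 97.8 kb away, which rose by 0.74 with LncND siRNA and did not pass with the mimic, at 0.08.

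S100B, the tested gene of the glial list, rose by 0.77 with LncND siRNA and fell by 0.35 with the mimic, in the same directions as HES1. The glial list summed to 6.83 to 7.19 FPKM in LncND siRNA libraries against 3.74 to 3.90 FPKM in scrambled siRNA libraries, and to 3.64 to 3.71 FPKM in mimic libraries against 4.63 to 5.58 FPKM in scrambled miRNA libraries. CD68, the only tested gene of the endothelial and blood list, rose by 1.02 with LncND siRNA. That list summed to 3.20 to 3.76 FPKM in LncND siRNA libraries against 1.41 to 1.60 FPKM in scrambled siRNA libraries, and to 1.39 to 1.96 FPKM in mimic libraries against 1.01 to 1.12 FPKM in scrambled miRNA libraries. The part of other cell types in the HES and HEY differences was not tested, and the glial marker SOX10 and the endothelial marker CDH5 were under 0.05 FPKM in every library.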

How the data were processed

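Poly(A) RNA-seq of SH-SY5Y cells was deposited by the authors as 2 FPKM tables, of the siRNA and of the miRNA libraries. The deposited columns hold a score per gene, FPKM with status words in the place of numbers in 292 and 282 of 25275 rows, so they were recorded as a score and analysed as FPKM. TopHat 1.0.0, Cufflinks and the hg19 build are named per the submitters' processing notes. For the annotation, strand setting and any filter, the tools' settings were not given in the sources used here.

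Rows off the assembled chromosomes (1304) and with status words were left out, and the row with the highest mean was kept for a repeated name. Genes whose mean over a table reached 1 FPKM entered limma 3.58.1 (R 4.3.3; lmFit, eBayes with a trend) as log2(FPKM + 1), each table alone, 2-sided, with Benjamini-Hochberg adjustment over all genes tested and a threshold of 0.05. Fold changes on this scale understate the change of low genes. The test was tried on simulated data. No counts were used, so the depths are estimates; they entered no test. The alternatives were a pseudocount of 0.1, no filter, a filter at 3 FPKM, median-ratio and quantile scaling, no trend, summed rows of a repeated name, a replicate block and each library left out; no filter with a pseudocount of 0.1 was added after seeing the data.

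The 9 genes and the lists were chosen with earlier results of these data known. All 9 are named; of each other list at most the 2 largest rises and 2 largest falls past the threshold in each comparison, NOTCH1 to NOTCH4, and the 3 genes most like each tested member. 1 gene of these lists and 1 seed match are not reported here.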

Additional observations from a re-analysis of the deposited data

How the results depend on the processing

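In the alternatives that kept all libraries, 2 to 3 genes were called with LncND siRNA, 3 to 5 with the mimic and 4 to 6 for the difference, against 3, 4 and 5 as reported, but not always the same genes. With LncND siRNA and no filter the 2 were HEY1 and HES2, with HES1 and HES6 lost; HES1 was also lost with quantile normalization, and HES6 without a trend and with the replicate block. With 1 library left out, 1 to 4 genes were called with LncND siRNA, 4 to 5 with the mimic and 5 for the difference in each case; the count with LncND siRNA was 1 without LncND siRNA replicate 2 and 1 without scrambled siRNA replicate 2. HES7 changed direction with LncND siRNA under quantile normalization, at -0.0044 on the log2(FPKM + 1) scale; the cause was not tested. With a replicate block, 2 genes were called with LncND siRNA, 5 with the mimic and 5 for the difference. The replicate numbers were not taken as pairing, since same-numbered siRNA libraries correlated by 0.07, 0.21 and -0.05 in their deviations from the group means, and the mimic comparison had only 2 pairs (0.14 each). Where a library is left out of a group of 2, the lone library is assumed to vary like the other group. Depth limits HES2, HES5, HEY2 and HEYL in the miRNA table, at 0 to 1.99 fragments per kb.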
